A study of Rattus norvegicus with 16 samples.

Results

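The comparison set 4 male Wistar rats that were restrained and inhaled (R)-(-)-linalool at the same time for 2 h (stress with linalool) against 4 untreated control rats, 1 array of the hypothalamus per rat. These 8 arrays were chosen by their titles, out of 16 in the series. All rats were 7 to 8 weeks old, and the labels name no allele and no further agent for any group. The remaining 8 arrays, 4 from rats only restrained for 2 h (stress) and 4 from rats that only inhaled linalool for 2 h (linalool), entered the shared model and serve to place the changes. Linalool, a fragrant terpene alcohol of many plants, exists in mirror-image forms, and (R)-(-)-linalool is the one abundant in lavender oil. The tissue's defining markers were present: Avp and Oxt, the vasopressin and oxytocin genes of the magnocellular neurons, were at 11.76 or above in every control rat on the log2(signal + 16) scale.

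The hypothalamus starts the hormonal response to restraint. Neurons of its paraventricular nucleus release corticotropin-releasing hormone, the pituitary answers with corticotropin, and the adrenal cortex with glucocorticoids. Glucocorticoids return to the brain, bind their receptor and switch on target genes such as Sgk1, Fkbp5 and Per1. Immediate early genes such as Fos follow neuronal activation within a short time, and heat shock genes follow the activation of heat shock factor by protein damage or warmth.

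Median signals before normalization were 67.0 to 116.0 on the control arrays and 110.3 to 117.7 on the stress with linalool arrays (exact two-sided permutation p = 0.286, where 0.0286 is the smallest that 4 against 4 allows). The control arrays were less alike than the others, with a median SD of 0.192 on the log2 scale against 0.131 for stress with linalool. The BioC hybridization spike-in stood at 898.2 on the array of stress with linalool rat 2 and at or below 244.8 on the other 7 arrays. Elsewhere in the series it was high in linalool rats 2 and 4 (862.3 and 793.0). All 3 BioC-high arrays were thus from rats that inhaled linalool, and its part in the results was not tested. The log2 ratio of the 3' to the 5' probe sets of beta-actin, a sign of RNA quality, was highest in control rat 1 (2.30) and did not separate the groups (exact permutation p = 0.914). The p-values of gene changes below measure the spread between rats, 1 array each, pooled over the 4 groups and all 16 arrays. The wider spread of the controls enters only as a part of it. Values without single rats are given where leaving one out ends a call.

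After restraint with linalool, 748 of 18625 probe sets passed an adjusted p of 0.05 (4.02%), in limma's moderated test with Benjamini-Hochberg adjustment. Of these, 457 were higher (2.45%) and 291 lower (1.56%) than in controls. Taking the brightest probe set of each gene, 188 of 10309 genes were higher and 194 lower. Among the called probe sets, 64 rose by more than 1 on the log2 scale and 12 fell by more than 1, and the median size of a called change was 0.56. The count rested on single rats: it was 407 without control rat 3, 359 without stress with linalool rat 1, 260 without rat 2 and 493 without rat 3 of that group. In 940 probe sets every treated rat was above every control (5.05%), and in 931 every one was below (5.0%). Below, a gene is said to have risen or fallen only where it passed this test, and changes are log2 differences with their standard error (SE).

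**Figure D1:**
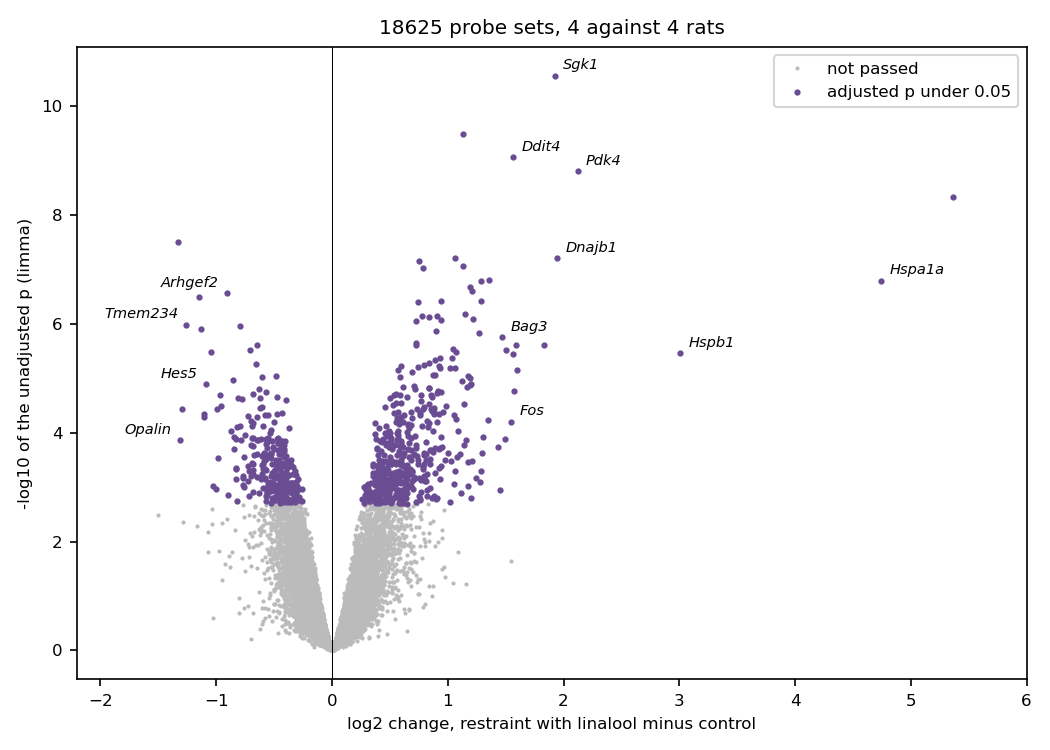
Each point is 1 of 18625 probe sets, with the log2 change from control to stress with linalool on the horizontal axis and -log10 of limma's unadjusted p on the vertical axis. Purple points passed an adjusted p of 0.05. Hspa1a and Hspb1 lie far to the right, Sgk1 has the smallest p, and the falls reach less far from 0 than the rises. The point farthest to the right is a probe set annotated to more than 1 gene and is not named.

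The largest rises among the named genes were those of heat shock genes. The heat shock list had 22 measured members, of which 16 passed as higher and 0 as lower. Its median change was 0.63, where the median over all genes was -0.03. Hspa1a encodes the inducible 70 kDa heat shock protein and is nearly identical in sequence to Hspa1b, so that the array may not keep them apart. It read 7.26, 7.32, 7.34 and 7.39 in control rats 1 to 4 and 12.83, 12.63, 11.75 and 11.06 in stress with linalool rats 1 to 4. The groups were far apart, and within the treated group rats 1 and 2 were above rats 3 and 4. The mean rose from 7.33 ± 0.05 to 12.07 ± 0.82 (SD, n = 4), by 4.74 (SE 0.54, adjusted p = 0.000214), a 26.7-fold change.

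Hspb1, a small heat shock protein that holds unfolded proteins in solution, read 7.37, 7.77, 7.72 and 7.66 in controls and 11.75, 11.12, 10.12 and 9.55 after treatment. It rose by 3.01 (SE 0.43, adjusted p = 0.00142) and showed the same order of the treated rats. Dnajb1, which delivers clients to Hsp70, read 9.69, 9.70, 9.70 and 9.62 in controls against 12.04, 11.93, 11.46 and 11.08, a rise of 1.95 (SE 0.21, adjusted p = 0.000143). Bag3, a cochaperone that directs Hsp70 clients to autophagy, rose by 1.47 (SE 0.20), from 8.41 to 8.63 in controls to 9.35 to 10.47. In each of these genes the lowest treated rat was above the highest control.

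Other chaperones rose by less. Chordc1, an Hsp90 cochaperone, rose by 1.22, Hspb8, the partner of Bag3, by 0.93, and Cryab, another small heat shock protein, by 0.88. Hsph1, a nucleotide exchange factor of Hsp70, rose by 0.88 (SE 0.16, adjusted p = 0.00655), from 11.02 to 11.50 in controls to 11.84 to 12.51. The mitochondrial chaperonin pair Hspe1 and Hspd1 rose by 0.51 and 0.48, and the cytosolic chaperone Hsp90ab1 by 0.30. These 3 calls rested on single rats. Hspe1 missed without treated rat 2 (0.45, adjusted p = 0.0594), and Hspd1 without control rat 3 or treated rat 1 or 2 (0.41 to 0.45, adjusted p = 0.0598 to 0.0797). Hsp90ab1 missed without any 1 of rats 1, 2 and 3 of either group (0.25 to 0.31, adjusted p = 0.0523 to 0.121). The heat shock factor genes themselves, Hsf1 (0.11, adjusted p = 0.725) and Hsf2 (0.04, adjusted p = 0.873), did not pass. Ccdc117, which was on no list, rose by 1.29 (SE 0.15, adjusted p = 0.000214), and the collagen chaperone Serpinh1, also on no list and picked after its values were seen, by 1.07 (SE 0.20, adjusted p = 0.0074).

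Heat shock factor binds alternating repeats of the unit GAA and its complement, and the stretches below show such repeats in 3 genes that rose. They are from RefSeq's promoter windows (250 bases before to 50 after the start, build GRCr8). Capitals mark a match to GAANNTTCNNGAA on either strand.
Hsph1, chr12:10427302-10427367, plus strand: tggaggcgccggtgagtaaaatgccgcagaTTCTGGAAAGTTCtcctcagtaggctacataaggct
Hspe1, chr9:64084232-64084304, plus strand: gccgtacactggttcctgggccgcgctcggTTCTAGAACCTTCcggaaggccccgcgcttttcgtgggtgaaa
Serpinh1, chr1:163062977-163063041, minus strand: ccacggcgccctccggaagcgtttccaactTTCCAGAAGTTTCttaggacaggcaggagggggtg
Hspd1 and Hspe1 lie head to head, and the stretch shown for Hspe1 overlaps the window of Hspd1 on the other strand. The same bases therefore count for both genes in the numbers that follow. Of 155 genes called higher that had a window, 6 held this motif (3.87%), against 1 of 165 called lower (0.606%) and 39 of 8595 measured genes (0.454%). All windows in the table held it in 267 of 33469 cases (0.798%). Within the heat shock list, 5 of the 15 called members with a window held it, and these are 5 of the 6 called higher. The windows of Hspa1a, Hspb1, Dnajb1 and Bag3 held no match, which says only that these letters are not in these 300 bases. The glucocorticoid response element was searched as AGAACA and TGTTCT separated by 3 bases. It was in 5 of all 33469 windows and in 0 of those of the 8595 measured genes, too few to compare. The cAMP response element TGACGTCA was in 6 of 155 windows of genes called higher (3.87%), 6 of 165 of those called lower (3.64%) and 287 of 8595 measured (3.34%). Of the immediate early list it was in 4 of 18 measured members with a window (22.2%) and in 1 of the 6 called ones (16.7%).

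Among targets of the glucocorticoid receptor, 20 of 31 measured genes rose, none fell, and the median change was 0.82. Sgk1, a kinase that controls ion channels and transporters, read 9.55, 9.31, 9.78 and 9.52 in controls and 11.28, 11.59, 11.57 and 11.40 after restraint with linalool. It rose by 1.92 (SE 0.12, adjusted p = 5.14e-07), a 3.79-fold change and the smallest p of the named genes. Pdk4, which shuts pyruvate out of the mitochondrial oxidation pathway, read 7.16, 6.95, 7.09 and 6.98 against 9.11, 9.65, 9.02 and 8.88, a rise of 2.12 (SE 0.17, adjusted p = 7.29e-06). Ddit4, an inhibitor of mTOR complex 1, read 9.29, 9.60, 9.81 and 9.56 against 11.19, 11.09, 11.17 and 11.06, a rise of 1.56 (SE 0.12, adjusted p = 5.38e-06). For all 3 genes every treated rat was above every control, and for Sgk1 and Ddit4 rats 1 and 2 were not set apart from rats 3 and 4.

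Plekhf1, an endosomal protein, rose by 1.14 (SE 0.08, adjusted p = 3.01e-06) and Bcl6, a transcriptional repressor, by 1.21 (SE 0.14). Nfkbia, the inhibitor that keeps NF-kappaB in the cytosol, rose by 1.19 (SE 0.14, adjusted p = 0.00026), from 7.47 to 7.94 in controls to 8.73 to 9.26. Fkbp5, a cochaperone that lowers the hormone affinity of the glucocorticoid receptor, rose by 0.84 (SE 0.14, adjusted p = 0.00365). Tsc22d3, which encodes the anti-inflammatory protein GILZ, and Errfi1, a feedback inhibitor of the EGF receptor, rose by 0.94 each. Klf9, a transcription factor, rose by 0.57 and Gpd1, glycerol-3-phosphate dehydrogenase, by 0.98. Members that did not pass included Dusp1, a MAP kinase phosphatase (0.71, adjusted p = 0.15), Mertk, a phagocytic receptor (0.36, adjusted p = 0.0802), and Glul, glutamine synthetase (0.14, adjusted p = 0.545). The receptor gene Nr3c1 read 9.23 to 9.49 in controls and 9.04 to 9.35 after treatment (-0.14, adjusted p = 0.441).

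**Figure D2:**
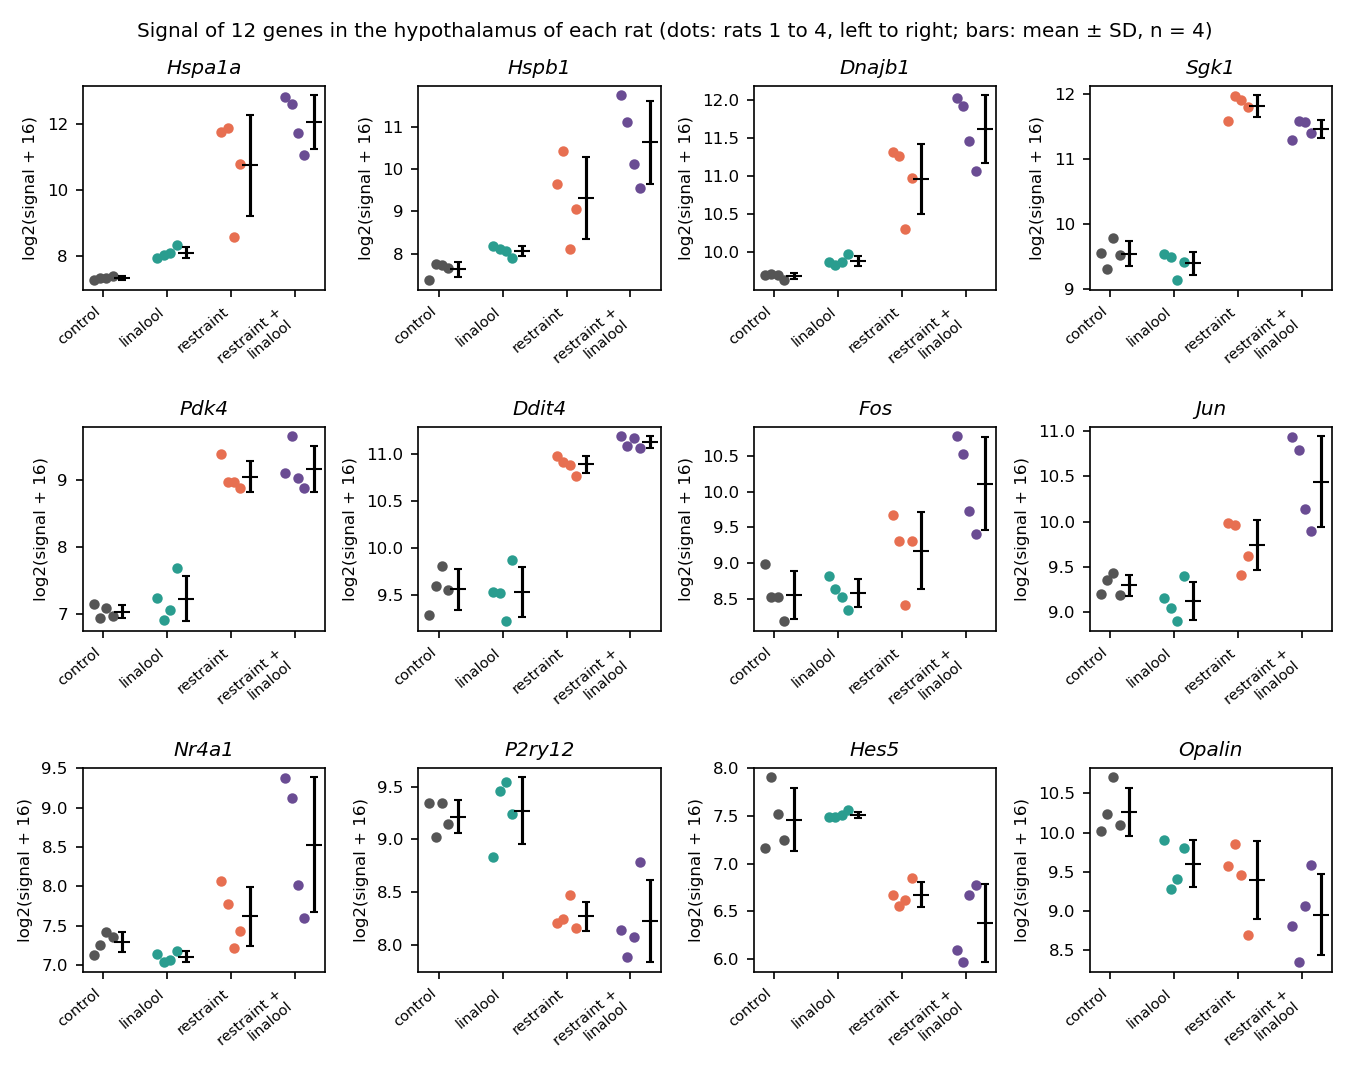
Each panel shows 1 gene, with log2(signal + 16) for each of 4 rats per group as dots and the mean ± SD (n = 4) beside them. In the restraint plus linalool group, Hspa1a, Hspb1, Dnajb1, Pdk4, Fos, Jun and Nr4a1 are higher in rats 1 and 2 than in rats 3 and 4, and Sgk1 and Ddit4 do not show this order. P2ry12, Hes5 and Opalin are lower there than in controls.

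Immediate early genes rose in part, and unevenly between rats. Of 25 measured members, 9 rose and 0 fell, with a median of 0.61. A further 10 of the 35 on the array were below the filter on signal, and 0 of them passed when it was dropped. Fos, a subunit of the AP-1 transcription factor, read 8.99, 8.53, 8.53 and 8.19 in controls and 10.77, 10.53, 9.73 and 9.40 after treatment, a rise of 1.55 (SE 0.29, adjusted p = 0.00785) that missed in the BioC-low arrays (1.41, adjusted p = 0.0617). Jun, its partner, read 9.20, 9.36, 9.43 and 9.19 against 10.93, 10.79, 10.13 and 9.90, a rise of 1.14 (SE 0.20, adjusted p = 0.00521). Neither gene's groups overlapped, and treated rats 1 and 2 were above rats 3 and 4 in both.

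Nr4a1, an orphan nuclear receptor induced by activity, read 7.13, 7.26, 7.43 and 7.35 against 9.38, 9.13, 8.02 and 7.60, a rise of 1.24 (SE 0.29, adjusted p = 0.0276). Its call was lost without control rat 2, 3 or 4, or without stress with linalool rat 1 or 2, at changes of 0.96 to 1.29 (adjusted p = 0.0535 to 0.101). Nr4a3, a related receptor, rose by 1.28 (adjusted p = 0.0305), but its groups overlapped, its second probe set did not pass (0.79, adjusted p = 0.115), and its call was lost without control rat 2 or 3 or treated rat 1 or 2 (1.02 to 1.19, adjusted p = 0.0762 to 0.111). Fosb rose by 1.05 (SE 0.15) from a low level, Gadd45g, a stress-response gene, by 0.94, and Crem, a cAMP-responsive modulator, by 0.88 on 4 of 4 probe sets. Egr1 (0.83, adjusted p = 0.0966), Junb (0.59, adjusted p = 0.0563), Arc, an activity-regulated synaptic gene (0.16), and Bdnf, a neurotrophin (0.03), did not pass.

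The difference between the treated rats ran through several lists. Averaged over a list's members and measured from the control mean, stress with linalool rats 1 to 4 were at 1.09, 1.12, 0.86 and 0.62 for heat shock genes and at 0.79, 0.74, 0.40 and 0.24 for immediate early genes. Glucocorticoid-responsive genes were at 0.78, 1.02, 0.74 and 0.66 in the same rats. For the inflammation list the values were 0.54, 0.63, -0.00 and 0.07, so that rats 3 and 4 were at the control level. The order was not particular to this group. Rats 1 to 4 with restraint alone were at 0.73, 0.82, 0.21 and 0.59 for heat shock genes. They were at 0.35, 0.38, 0.12 and 0.25 for immediate early genes and at 0.27, 0.20, 0.13 and 0.13 for the inflammation list. Their glucocorticoid-responsive values (0.68, 0.87, 0.79 and 0.71) did not show it. Among the stress with linalool rats the BioC spike-in was high in rat 2 alone, and its part in the difference between rats was not tested. Without stress with linalool rat 2, 12 heat shock, 16 glucocorticoid-responsive and 6 immediate early genes rose. With the 3 BioC-high arrays left out (13 arrays kept), these counts were 11, 15 and 5, and without control rats 1 and 2 they were 13, 15 and 6.

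**Figure D3:**
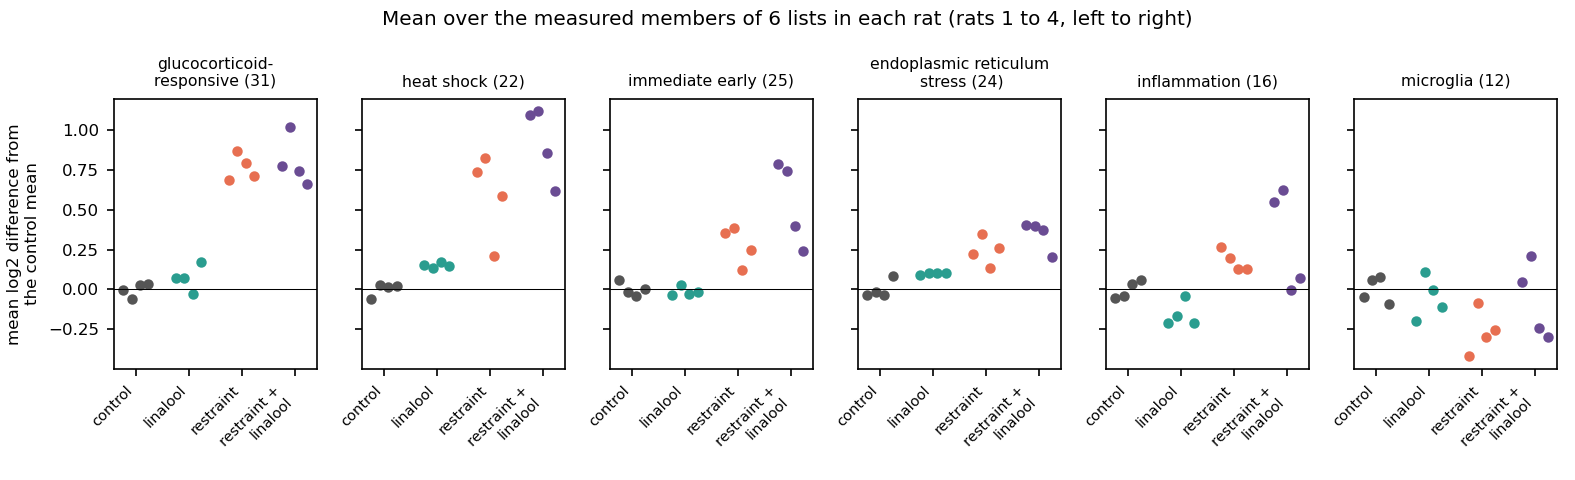
Each dot is 1 rat, placed at the mean log2 difference from the control mean over the measured members of a list (their number in brackets). In the restraint plus linalool group, rats 1 and 2 lie above rats 3 and 4 for the heat shock, immediate early, inflammation and microglia lists, and the glucocorticoid-responsive list shows the same order over a narrower range (0.66 to 1.02).

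Genes of the endoplasmic reticulum stress response rose less. Of 24 measured members, 9 rose and 0 fell, with a median of 0.35. Herpud1, which takes part in clearing misfolded proteins from the reticulum, rose by 0.92 (SE 0.14, adjusted p = 0.00205), from 8.85 to 9.28 in controls to 9.70 to 10.27. Ddit3, the transcription factor CHOP, rose by 0.65 (SE 0.13), Sdf2l1, a chaperone cofactor, by 0.56 (SE 0.11) and Hspa5, the main chaperone of the reticulum, by 0.55 (SE 0.10, adjusted p = 0.00511). Hspa5 read 12.29, 11.91, 11.95 and 12.07 in controls and 12.63, 12.55, 12.69 and 12.54 after treatment, without overlap. The transcription factors Xbp1 (0.26, adjusted p = 0.138) and Atf4 (0.42, adjusted p = 0.0528) did not pass. With the deposited values, not normalized between arrays, 1 member rose. Without control rats 1 and 2 the count was 4, and in the BioC-low arrays 2.

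Among clock genes, 4 of 22 rose and 1 fell, with a median of 0.09, and 2 rose without treated rat 2. Per1, a clock repressor that glucocorticoids also induce, read 7.39, 6.86, 7.43 and 7.49 against 8.66, 8.55, 8.22 and 7.99, a rise of 1.06 (SE 0.16, adjusted p = 0.00206). Usp2, a deubiquitinase with a daily rhythm, read 7.84 to 7.94 against 8.68 to 8.81, a rise of 0.84 (SE 0.11, adjusted p = 0.00055). Nfil3, a repressor at D-box sites, rose by 0.92 (adjusted p = 0.0147), and its call was lost without treated rat 1 or 2 (0.81 to 0.85, adjusted p = 0.0507 to 0.063). Per2, a partner of Per1, rose by 0.41 and missed without treated rat 2 (0.38, adjusted p = 0.0726). Dbp, the D-box activator, fell by 0.47 (SE 0.11, adjusted p = 0.0223), a call lost without control rat 2, 3 or 4 or treated rat 1 or 2 (-0.47 to -0.40, adjusted p = 0.0535 to 0.087). The core genes Clock (-0.01) and Bmal1 (0.13) did not pass.

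Of 16 measured inflammation genes, 4 rose and 0 fell, and 3 of those 4 are also on the glucocorticoid-responsive list. The count of rises was 2 without treated rat 1 and 2 without treated rat 2. A further 14 of the 30 on the array were below the filter on signal, the cytokine genes Il1b, Il6 and Tnf among them. When the filter was dropped, 0 of these 14 passed. Cebpd, a transcription factor of the acute phase response, read 6.29, 6.74, 6.73 and 6.75 against 8.37, 8.77, 7.53 and 7.22, a rise of 1.34 (SE 0.25, adjusted p = 0.00741) that missed without control rats 1 and 2 (1.23, adjusted p = 0.0541) and with the 8 arrays alone (adjusted p = 0.0779). Its relative Cebpb rose by 1.30 (SE 0.27, adjusted p = 0.016), and this call was lost without treated rat 1 or 2 (1.05 to 1.19, adjusted p = 0.0539 to 0.0585). Ch25h, which makes 25-hydroxycholesterol, read 6.62, 6.96, 7.01 and 7.14 against 8.57, 9.20, 7.74 and 7.35, a rise of 1.28 (SE 0.30, adjusted p = 0.0244). It failed without control rat 3 or treated rat 1 or 2 (0.95 to 1.31, adjusted p = 0.0532 to 0.0766). For these genes the groups did not overlap, and treated rats 1 and 2 were well above 3 and 4. The NF-kappaB subunit genes Nfkb1 (-0.01) and Rela (-0.30, adjusted p = 0.139) did not pass.

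In the oxidative stress and hypoxia list, 2 of 22 rose and 1 fell. Hmox1, heme oxygenase, read 6.77, 6.57, 6.28 and 6.94 against 8.71, 7.94, 7.31 and 7.04, a rise of 1.11 (SE 0.29, adjusted p = 0.0397). The lowest treated rat was just above the highest control, and the call was lost without control rat 2 or 3 or treated rat 1 or 2 (0.79 to 1.09, adjusted p = 0.0761 to 0.118). Srxn1, sulfiredoxin, rose by 0.73 (SE 0.13, adjusted p = 0.0059), although its dimmer probe set did not pass (0.67, adjusted p = 0.206). Keap1, the repressor of the antioxidant factor Nrf2, fell by 0.44 (adjusted p = 0.014), with 0.05 (adjusted p = 0.94) on a second probe set. Without treated rat 2, Keap1 did not pass (-0.40, adjusted p = 0.0594). In the insulin and mTOR list 3 of 17 rose, namely Sgk1, Ddit4 and Eif4ebp1, a translation repressor (0.40, SE 0.09, adjusted p = 0.0167). The last was lost without control rat 3 or treated rat 2 (0.34 each, adjusted p = 0.0532 and 0.07).

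Notch target genes were among the falls. Nrarp, a feedback inhibitor of Notch signalling, read 9.02, 8.99, 9.06 and 9.43 in controls and 7.89, 7.72, 8.21 and 8.10 after treatment, a fall of 1.14 (SE 0.14, adjusted p = 0.000338), and its second probe set fell by 0.96. Hes5, a Notch-induced repressor of neurogenesis, read 7.16, 7.90, 7.52 and 7.25 against 6.09, 5.96, 6.67 and 6.78, a fall of 1.09 (SE 0.18, adjusted p = 0.00335). Hey2, a related repressor, fell by 0.56 (SE 0.11, adjusted p = 0.0124) and missed the threshold without treated rat 2 (-0.52, adjusted p = 0.0515). These 3 were the called members of 13, and all are targets. The receptor Notch1 (0.05), the ligand Jag1 (0.01) and the target Hes1 (0.16) did not pass. The list median of -0.13 became 0.05 with the deposited values, which shift the median of all probe sets to 0.16. Nrarp (-0.98) and Hes5 (-0.89) passed there too, and Hey2 did not (-0.40, adjusted p = 0.452).

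Some markers of microglia, oligodendrocytes and vessels fell. In bulk tissue, fewer cells of a type and less RNA per cell cannot be told apart. Of 12 microglia markers, 3 fell and 0 rose, with a median of 0.13. Gpr34, a lysophospholipid receptor, read 7.93, 7.73, 7.82 and 6.98 against 6.43, 6.31, 6.06 and 6.48, a fall of 1.30 (SE 0.23, adjusted p = 0.0059) that missed without control rats 1 and 2 (-1.08, adjusted p = 0.0581). P2ry12, the ADP receptor of resting microglia, read 9.34, 9.03, 9.35 and 9.14 against 8.14, 7.88, 8.07 and 8.78, a fall of 0.99 (SE 0.18, adjusted p = 0.0059). Both sets of rats were apart. Cx3cr1, the fractalkine receptor, fell by 0.49 (adjusted p = 0.0459) with overlapping groups, and failed without any 1 of control rats 2, 3 and 4 and treated rats 1, 2 and 3 (-0.51 to -0.42, adjusted p = 0.071 to 0.147).

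Other microglia markers did not follow. C1qa, C1qb and C1qc, the chains of complement C1q, were at 0.38, 0.63 and 0.75 (adjusted p = 0.364, 0.126 and 0.0859), with the highest value of each in treated rat 2. Csf1r, the receptor microglia depend on, was at 0.19 (adjusted p = 0.447). Off the lists, and taken from the called falls, Cd33, a sialic acid receptor of myeloid cells, fell by 1.05 (SE 0.15, adjusted p = 0.0014), from 7.13 or above in every control to 6.78 or below in every treated rat. Bin2, a membrane-bending protein of blood and myeloid cells, fell by 0.87 (SE 0.17, adjusted p = 0.0101), but not with the deposited values (-0.69, adjusted p = 0.105), with the 8 arrays alone (adjusted p = 0.0524) or without control rats 1 and 2 (-0.78, adjusted p = 0.0645). Plek, pleckstrin, picked after its values were seen, fell by 0.84. Of 3 perivascular macrophage markers 1 rose, with Mrc1 at 0.29 (adjusted p = 0.333) and F13a1 at -0.20 (adjusted p = 0.679) not passing. Lyve1, a hyaluronan receptor of these cells, rose by 0.79 (SE 0.17, adjusted p = 0.0167) on both of its probe sets. Lyve1 missed the threshold without treated rat 1 or 3 (0.70 to 0.72, adjusted p = 0.0503 to 0.0579).

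All 11 oligodendrocyte markers were below 0, with a median of -0.13, and 2 fell. Opalin, a membrane protein of central myelin, read 10.01, 10.24, 10.71 and 10.09 against 8.81, 8.34, 9.07 and 9.58, a fall of 1.31 (SE 0.26, adjusted p = 0.0121) without overlap, which missed in the BioC-low arrays (-1.11, adjusted p = 0.0734). Cnp, a myelin enzyme, fell by 0.43 (adjusted p = 0.0442) with overlapping groups and not on its second probe set (-0.25, adjusted p = 0.61). Its call was lost without any 1 of rats 1, 2 and 3 of either group (-0.46 to -0.34, adjusted p = 0.0709 to 0.151). The abundant myelin genes Mbp (-0.07), Mobp (-0.01) and Mag (-0.13) did not pass. With the deposited values the list median was 0.03. Nkx6-2, a transcription factor of oligodendrocytes, and Gal3st1, which makes the myelin lipid sulfatide, were on no list, were picked after their values were seen, and fell by 0.82 and 0.70. Gal3st1 missed without control rat 3 or treated rat 1 or 2 (-0.69 to -0.57, adjusted p = 0.0635 to 0.0969).

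Of 13 endothelial markers, 2 fell and 0 rose, with a median of -0.25. Sox18, a vascular transcription factor, read 7.62, 7.92, 7.73 and 7.84 against 6.31, 6.24, 7.08 and 7.07, a fall of 1.10 (SE 0.20, adjusted p = 0.00688). Slco1a4, an organic anion transporter of the blood-brain barrier, fell by 0.60 (SE 0.13, adjusted p = 0.0172), and missed without treated rat 2 or 3 (-0.58 to -0.54, adjusted p = 0.052 to 0.0632). Sox17 (-0.67, adjusted p = 0.0529) and the VEGF receptor Kdr (-0.77, adjusted p = 0.0516) did not pass, nor did Cldn5, a tight junction gene (-0.31, adjusted p = 0.419). Of 7 pericyte and smooth muscle markers 1 fell and 0 rose, with a median of -0.01 and 2 above 0. Pdgfrb, a pericyte receptor, fell by 0.69 (adjusted p = 0.02), and not without control rat 3 or treated rat 2 or 3 (-0.67 to -0.55, adjusted p = 0.0531 to 0.0705). The mean of the 7 leptomeningeal markers ranged from -0.39 to 0.25 in controls and from -1.10 (rat 2) to 0.66 (rat 1) in the treated group. The mean of the 3 pituitary markers ranged from -2.58 (control rat 3) to 1.00, and from -0.63 to 0.87 in the treated group. The part of such tissue in the results was not tested.

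Astrocyte markers numbered 11, and 1 of them rose, Gjb6, a gap junction gene also on the glucocorticoid-responsive list (0.35, SE 0.08, adjusted p = 0.0215). Gjb6 did not pass without treated rat 1 or 2 (0.35 to 0.36, adjusted p = 0.0557 to 0.0726). Of 6 ependyma and tanycyte markers 1 rose and 0 fell, with a median of 0.07 and 2 below 0. Foxj1, the regulator of motile cilia, rose by 0.79 (adjusted p = 0.0268), a call that ended without control rat 3 or 4 or treated rat 1 or 2 (0.69 to 0.80, adjusted p = 0.0716 to 0.077). None of the 10 neuron, 8 oligodendrocyte precursor or 9 hypothalamic neuron markers passed limma's adjusted threshold, and 1, 0 and 1 of them had an unadjusted p under 0.05. Over all probe sets 4.02% passed, so that 0 or 1 call in lists this short does not set them apart.

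**Figure D4:**
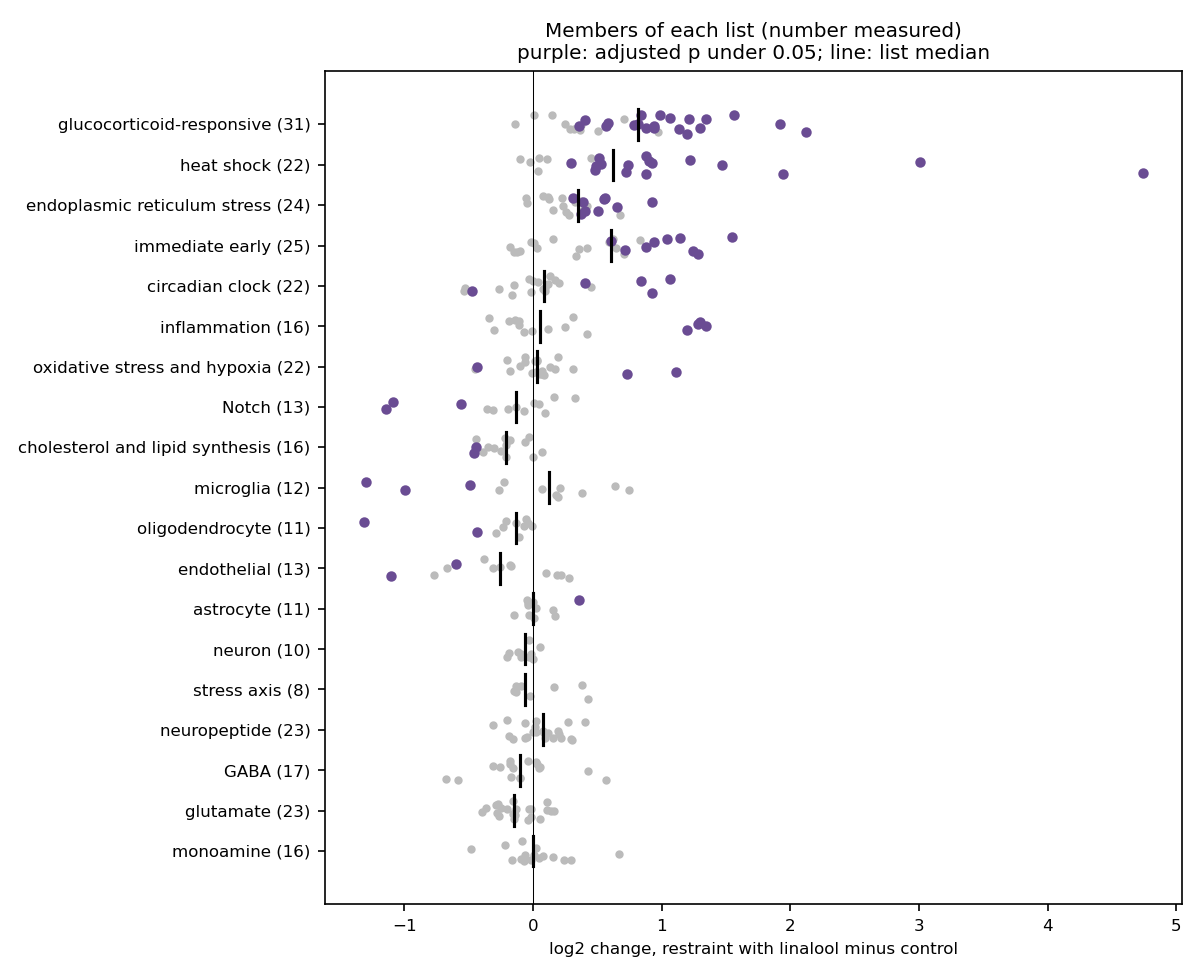
Each dot is 1 measured gene of a list, at its log2 change from control to stress with linalool. Purple dots passed an adjusted p of 0.05 and black lines mark list medians. The glucocorticoid-responsive, heat shock, endoplasmic reticulum stress and immediate early lists lie to the right, and the neuropeptide and transmitter lists have no purple dot.

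Genes of the stress axis and of neurotransmission did not pass, where 4.02% of all probe sets did. At that share a list of few genes can hold 0 calls without being set apart. Of 8 measured stress axis genes, 0 rose and 0 fell in limma's adjusted test, and 2 had an unadjusted p under 0.05. Crh, corticotropin-releasing hormone, read 7.61, 7.09, 7.57 and 7.71 in controls and 8.07, 7.47, 8.01 and 7.96 after treatment, with overlap (0.38, SE 0.17, adjusted p = 0.245). Avp was at -0.09 (SE 0.23, adjusted p = 0.88) and Oxt at 0.17 (SE 0.14, adjusted p = 0.559). None of 23 neuropeptide, 17 GABA, 23 glutamate, 16 monoamine or 36 potassium channel genes passed in limma's adjusted test, where 2, 5, 3, 1 and 3 had an unadjusted p under 0.05. None of 34 ribosomal protein, 68 oxidative phosphorylation, 40 proteasome, 24 BMP and TGF-beta and 8 odorant and xenobiotic response genes passed either, with 0, 5, 7, 3 and 1 under that unadjusted p. A further 35 potassium channel genes were below the filter on signal. When it was dropped, 1 of these passed as lower in limma's test, Kcnh6 (-0.71, adjusted p = 0.0402). Over all 18625 probe sets 3502 had an unadjusted p under 0.05, so that smaller changes than those called may lie below the threshold.

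Rbm3, an RNA-binding protein that rises when tissue cools, read 9.93, 10.21, 9.92 and 9.93 in controls and 9.32, 8.57, 9.12 and 9.15 after treatment, a fall of 0.96 (SE 0.17, adjusted p = 0.00563) without overlap. Its relative Cirbp was at -0.17 (SE 0.15, adjusted p = 0.566). In cholesterol and lipid synthesis 15 of 16 genes were below 0 and 2 fell, with a median of -0.21. Sqle, squalene epoxidase, fell by 0.46 and Srebf1, a lipogenic transcription factor, by 0.44. Sqle missed without control rat 2 or treated rat 1, 2 or 3 (-0.49 to -0.35, adjusted p = 0.0548 to 0.116). Srebf1 missed without control rat 3 or 4 or treated rat 2 or 3 (-0.47 to -0.36, adjusted p = 0.0533 to 0.118).

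Falls on no list included Tmem234, a membrane protein, which read 8.21, 7.77, 7.60 and 7.77 against 6.42, 6.31, 6.71 and 6.88 (-1.26, SE 0.16, adjusted p = 0.00066). Arhgef2, a microtubule-bound activator of RhoA, read 8.89, 9.00, 8.99 and 8.73 against 7.87, 7.81, 8.01 and 8.30 (-0.91, SE 0.11, adjusted p = 0.000301). In both genes all treated rats were below all controls. Eml2, a microtubule-associated protein, fell by 1.03 (adjusted p = 0.0336), and not without control rat 2 or 3 or treated rat 1 or 2 (-0.92 to -0.86, adjusted p = 0.083 to 0.116).

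The labels' 2 × 2 layout lets the combined treatment be set beside each treatment alone. Restraint alone called 168 probe sets against the same controls (0.902%) and linalool alone 0 (0.0%), with a smallest adjusted p of 0.282 and 1831 probe sets at an unadjusted p under 0.05. The changes below share the control rats, so their likeness is not evidence of its own. Hspa1a changed by 4.74 with both, 3.44 with restraint and 0.78 with linalool. Hspb1 changed by 3.01, 1.69 and 0.44 in that order, Fos by 1.55, 0.62 and 0.03, and Jun by 1.14, 0.45 and -0.17. Sgk1 changed by 1.92, 2.27 and -0.15, Pdk4 by 2.12, 2.01 and 0.19, and P2ry12 by -0.99, -0.95 and 0.06. List medians were 0.63, 0.32 and 0.11 for heat shock, 0.61, 0.30 and -0.04 for immediate early genes, and 0.82, 0.67 and 0.03 for glucocorticoid-responsive genes. Marker lists differed from this. Their medians were -0.25, -0.07 and -0.25 for endothelial and -0.13, -0.02 and -0.21 for oligodendrocyte markers. For pericyte and smooth muscle markers they were -0.01, -0.08 and -0.22, and for microglia 0.13, -0.17 and -0.00.

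**Figure D5:**
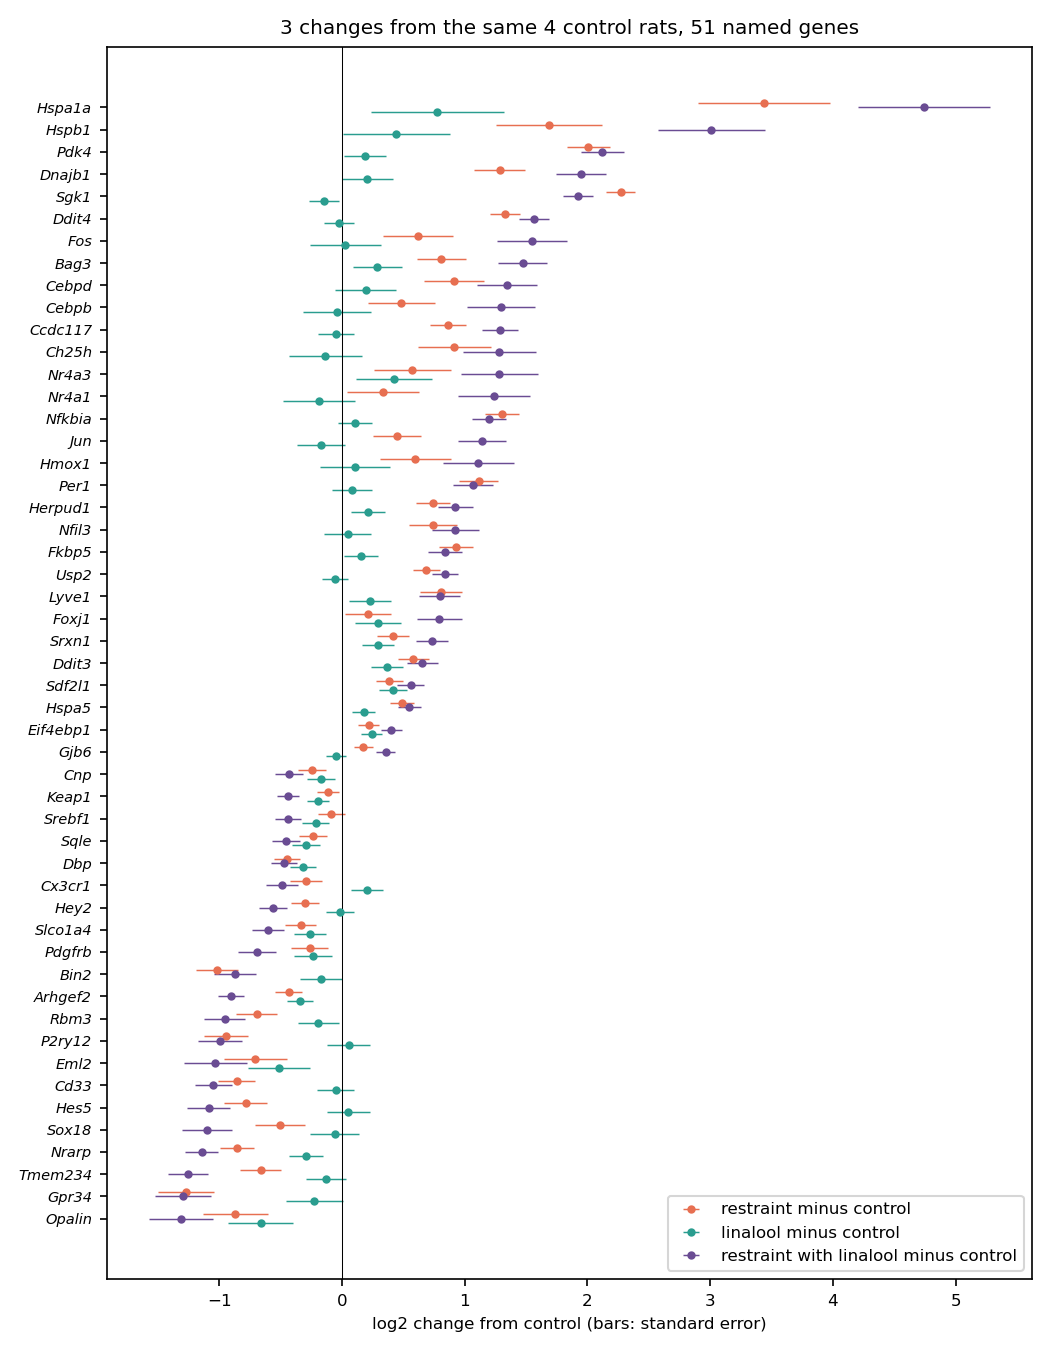
For each of 51 named genes that passed in stress with linalool against control, the log2 change from control is shown for restraint with linalool (purple), restraint (orange) and linalool (green), with limma's standard error as bars. All 3 use the same 4 control rats. Heat shock genes and Fos lie farther from 0 with both treatments than with restraint, Sgk1 lies nearer, and most linalool changes lie close to 0.

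Tested directly against restraint alone, 121 probe sets differed (0.65%), 111 of them higher (0.596%) and 10 lower (0.0537%). None of the 51 named genes called against control was among them in limma's adjusted test, and 22 had an unadjusted p under 0.05. The 95% interval of the difference was 0.16 to 2.45 for Hspa1a (adjusted p = 0.32), 0.40 to 2.24 for Hspb1 (adjusted p = 0.194) and 0.32 to 1.54 for Fos (adjusted p = 0.167). For Jun it was 0.27 to 1.11 (adjusted p = 0.131), and for Sgk1 -0.60 to -0.10 (adjusted p = 0.21). These intervals are not adjusted for the number of probe sets tested, and they leave both small and large differences possible. The 51 genes were picked as called against control, and both tests use the same treated arrays. That choice by itself favours differences from restraint in the direction of the called change. For P2ry12 the interval was -0.42 to 0.32 and for Pdk4 -0.25 to 0.48. Tested directly against linalool alone, 314 probe sets differed (1.69%), 209 of them higher (1.12%) and 105 lower (0.564%). Of the 51 named genes 33 differed there, and the same choice of genes bears on this count. The interaction of restraint and linalool passed for 0 probe sets in limma's test (smallest adjusted p = 0.0565, with 1489 at an unadjusted p under 0.05).

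A set of 13 genes, singled out after their values were seen, differed from control and from restraint alone in the same direction. Both tests use the same 4 treated arrays, and the values are those of each gene's brightest probe set. The largest difference from restraint was that of Cutal, a dim gene with 1 probe set. It was 1.07 above restraint (adjusted p = 0.00569) and 0.91 above control (adjusted p = 0.00387). Pdia3, a protein disulfide isomerase of the reticulum, read 11.00, 11.12, 11.05 and 10.91 in controls and 11.40, 11.37, 11.25 and 11.30 after both treatments. It rose by 0.31 against control (adjusted p = 0.0326) and was 0.36 above restraint alone (adjusted p = 0.0394). Tmem33, a membrane protein of the reticulum, rose by 0.79 (adjusted p = 0.0059) and was 0.76 above restraint (adjusted p = 0.0213). Setd5, a chromatin regulator, was at 0.68 and 0.84, Kif3a, a kinesin motor of ciliary transport, at 0.48 and 0.62, and RT1-DMa, an MHC class II chaperone, at 0.59 and 0.46. Emd, a nuclear envelope protein, was at 0.37 and 0.36. Ganc, an alpha-glucosidase, and Slc31a2, a copper transporter, were lower in both (-0.69 and -0.90, and -0.33 and -0.50). Second probe sets did not pass in either test for Pdia3 (0.25 against control), Tmem33 (0.32), Kif3a (-0.01) and Ganc (-0.08). Of the other 2 probe sets of Setd5, 1 passed against control (0.42, adjusted p = 0.0461) and neither against restraint. The calls against control also rested on single rats. Pdia3 missed without control rat 3 or 4 or treated rat 1 or 2 (0.27 to 0.32, adjusted p = 0.0613 to 0.101), and Setd5 without control rat 2, 3 or 4 or treated rat 1 or 2 (adjusted p = 0.0545 to 0.087). Kif3a missed without control rat 2, 3 or 4 or treated rat 2 or 3 (adjusted p = 0.0536 to 0.0833), and Ganc without control rat 3 or 4 or treated rat 1, 2 or 3 (adjusted p = 0.0738 to 0.124). Slc31a2 missed without any 1 of the 8 rats but control rat 4 (adjusted p = 0.0542 to 0.136). Against linalool alone, only Cutal of these 13 genes passed in limma's test (0.64, adjusted p = 0.0432). Kif3a averaged 8.49 with linalool and 8.59 with both treatments (adjusted p = 0.71). Setd5 averaged 8.74 and 9.01 (adjusted p = 0.416), and RT1-DMa 8.32 and 8.64 (adjusted p = 0.116).

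Of the lists, 4 members differed from restraint alone, each higher, and only Pdia3 of them also passed against control. Gad2, which makes GABA, read 9.21, 9.35, 9.66 and 9.09 in controls and 9.54, 9.98, 9.83 and 9.68 after both treatments. It was 0.77 above restraint alone (adjusted p = 0.0201) and 0.43 above control (adjusted p = 0.0935), a difference that passed without control rat 3 (0.54, adjusted p = 0.0479). Gabra2, a GABA-A receptor subunit, was 0.96 above restraint (adjusted p = 0.0454) and 0.56 above control (adjusted p = 0.145). Bmpr2, a bone morphogenetic protein receptor, was 1.03 above restraint (adjusted p = 0.00569) and 0.40 above control (adjusted p = 0.122). For these 3 genes the stress rats had the lowest mean of the 4 groups, at 8.99, 8.45 and 8.58, with controls at 9.33, 8.85 and 9.21. The linalool rats averaged 9.37, 9.26 and 9.24, and the rats with both treatments 9.76, 9.41 and 9.62.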

How the data were processed

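Signal intensity of 31099 probe sets on 16 arrays was taken from the authors' deposited table. Per the submitters' processing notes the software was MAS5, whose version and scaling target are not given in the sources used here. Array medians differed, so log2 values were quantile-normalized between arrays, which hides a change shared by most transcripts. They were raised by a pseudocount of 16, so changes of dim genes are understated. Control probe sets (57) were dropped, and those with a mean at or above the 40th percentile were kept (18625). Symbols came from the platform annotation: 20826 probe sets had 1, 436 several and 9780 none. A gene stands for its brightest kept probe set. One limma 3.58.1 model in R 4.3.3 over all arrays gave two-sided tests with Benjamini-Hochberg adjustment. It was tested on simulated data. Named genes were the 12 largest called rises and falls, up to 4 called members of each list, and Crh, Avp, Oxt, Fos, Nr4a1, Sgk1, Fkbp5, Per1, Hspa1a, Cirbp and Gad2; other list members illustrate. The comparison, the 22 pathway and 17 marker lists and the rule were chosen with earlier results of these data known. The labels give each array its own rat, and no read depth exists for arrays, so their number limits the precision. Alternatives were other scalings, pseudocounts, filters, blocks and left-out arrays.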

Additional observations from a re-analysis of the deposited data

Results flagged for a closer look

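Of 120 groups of 4 rats examined (the named genes and the array measures, in both groups), 9 held a rat far from the other 3 by Dixon's criterion (the gap to the nearest rat as a share of the range, 95% critical value), where chance gives about 6. In control rat 1, Cebpd was low at 6.29 (others 6.73 to 6.75) and the log2 ratio of the 3' to the 5' GAPDH probe sets was high at 0.479 (others 0.188 to 0.214). In control rat 2, Rbm3 was high at 10.21 (others 9.92 to 9.93) and Per1 low at 6.86 (others 7.39 to 7.49). In control rat 4, Dnajb1 was low at 9.62 (others 9.69 to 9.70) and Nrarp high at 9.43 (others 8.99 to 9.06). In stress with linalool rat 2, Sqle was low at 9.04 (others 9.36 to 9.40), Gjb6 high at 10.60 (others 10.56 to 10.57) and the BioC spike-in high at 898.2 (others 219.3 to 244.8).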

How the results depend on the processing

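Against 748 called probe sets, the count was 311 with the values as deposited, 428 with no filter, 203 with the 8 arrays alone, 445 with the BioC split as a block, 220 in the BioC-low arrays and 440 without control rats 1 and 2. Leaving out 1 rat gave 260 to 1044. With the deposited values 94.2% of calls were higher, against 61.1%, and 15 named genes lost their call. The falls of Dbp, Keap1, Cx3cr1, Cnp, Slco1a4, Pdgfrb, Sqle and Srebf1 missed there widely (-0.49 to -0.25, adjusted p = 0.33 to 0.66). These calls therefore depended on the normalization between arrays. The rises of Eif4ebp1 and Gjb6 missed there too (0.58 and 0.52, adjusted p = 0.139 and 0.211). Other scalings, pseudocounts, the higher filter, the prior and the beta-actin covariate gave 565 to 1061. Correlations of same-numbered control and stress with linalool rats (-0.07 to 0.15) lay within those of differently numbered ones (-0.14 to 0.18). Pairing by number with the other groups was not checked. With the replicate block 684 were called, 614 of them shared. Of 51 called named genes, 21 kept their call in every one of the 21 alternatives that gave a value, with the higher filter giving one for 40 of 56 named genes. Of genes whose calls no single rat ended, Hes5 and Srxn1 also missed with the 8 arrays alone (adjusted p = 0.0537 and 0.0682), Hspa5 with the deposited values (adjusted p = 0.0551), and Ddit3 and Sdf2l1 in 4 alternatives each (adjusted p up to 0.0731 and 0.0964). The direction of Avp, which never passed, turned with the deposited values (0.082), in the BioC-low arrays (0.056) and without stress with linalool rat 2. Leaving out 1 rat gave Avp changes of -0.192 to 0.056. The cause of these shifts was not tested. Median list changes kept their sign for the heat shock, glucocorticoid-responsive, immediate early and endoplasmic reticulum stress lists in all 21 alternatives. The microglia median went from 0.13 to -0.05 without treated rat 2.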

Other observations

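Apart from predicted genes named by a number and microRNA genes, called genes on none of the lists numbered 122 higher and 174 lower. The genes named here were picked after their values were seen. P4ha1 and P4ha2, prolyl hydroxylase subunits, rose by 1.04 (SE 0.15) and 1.02 (SE 0.16), and Serpinh1 read 9.03, 9.92, 9.42 and 9.26 in controls and 11.00, 10.42, 10.34 and 10.15 after restraint with linalool. Slc5a3, an osmolyte transporter that imports myo-inositol, rose by 1.19 (SE 0.19, adjusted p = 0.00336 in limma's test). Dedd2, a death effector domain gene, rose by 1.19, Mcl1, a survival member of the BCL2 family, by 0.85, and Sesn2, a stress-induced regulator of mTOR, by 0.65. Mcl1 missed without treated rat 2 (0.78, adjusted p = 0.063), and Sesn2 without control rat 2 or 3 or treated rat 1 or 2 (adjusted p = 0.0519 to 0.0946). Sik1, a salt-inducible kinase, rose by 0.64 with overlapping groups, and missed without any 1 of the 8 rats but treated rat 4 (adjusted p = 0.0557 to 0.138).

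Among the falls, Tfrc, the transferrin receptor, read 10.37, 10.52, 10.53 and 10.70 in controls and 9.77, 9.88, 9.93 and 10.04 after treatment (-0.63, SE 0.10). Zfp36l2, which destabilizes AU-rich messages, fell by 0.71, Tspan2, a tetraspanin of myelin, by 0.60, and Cxcl12, a chemokine, by 0.61. Sox7, a relative of Sox18, fell by 0.58 and Prkab1, a subunit of AMP-activated kinase, by 0.64. Tspan2 missed without control rat 2 or 3 or treated rat 2 or 3 (adjusted p = 0.0505 to 0.0785), Cxcl12 without control rat 2 or 3 or treated rat 1 or 2 (adjusted p = 0.0529 to 0.0811), and Sox7 without control rat 2 or 3 or treated rat 1, 2 or 3 (adjusted p = 0.0579 to 0.085).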
